A study of Mus musculus with 6 samples.

Results

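The voltage-gated sodium, calcium and potassium channel genes were examined in RNA sequencing counts from fetal mouse cortex. They were taken by gene symbol and not by any measured value: the sodium channel alpha and beta genes (Scn), the calcium channel alpha1, alpha2delta, beta and gamma genes (Cacna1, Cacna2d, Cacnb, Cacng), and the Kcna, Kcnb, Kcnc, Kcnd, Kcnh and Kcnq potassium channel genes. The rule took 69 of the 45583 genes in the count table, of which 49 encode pore-forming subunits and 20 encode auxiliary subunits. The samples were cortices of 6 male fetuses at GD15.5 (gestational day), each sequenced as 1 library. Their dams belonged to the Cyp19-EGFP strain on an FVBN background, in which an artificial chromosome carries the aromatase gene with a green fluorescent protein gene placed before its start codon, and all 6 fetuses are labelled wild type and positive for Sry. Dams of 3 fetuses received bisphenol A (BPA, a plastic monomer with estrogenic activity) by subcutaneous injection at 50 µg/kg per day from GD10.5 to GD14.5, and dams of the other 3 received the vehicle, ethanol in peanut oil, on the same days. The comparison asked whether this exposure changed gene expression in the fetal male cortex.

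Voltage-gated channels open or close when the membrane potential changes and so give neurons their electrical excitability. Sodium channels drive the upstroke of the action potential, calcium channels couple depolarization to transmitter release and gene expression, and potassium channels end the action potential and set the resting potential. A pore-forming subunit gives each channel its ion selectivity and voltage sensor, while auxiliary subunits alter its trafficking, its gating or its place in the membrane. In developing cortex some of these genes are used before birth and others rise only as neurons mature.

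Channel genes ranged from no counts to high levels, and the sequence around a gene's start was a feature that went with whether it could be measured. Levels are given in CPM, read counts scaled to a common library total. Promoter windows of 300 bases, 250 before and 50 after an annotated start, were matched in RefSeq (GRCm38.p6) for 49 of the 69 channel genes. Below are the 250 bases before the start for 2 channel genes that were counted well and for 2 that were near the detection limit, each written 5′ to 3′ on the gene's strand with every CG dinucleotide in capitals. They were picked after their values were seen, as windows that overlap no annotated exon. The first, of Scn8a (plus strand, 30 CG), lies at chr15:100870395-100870644. Scn8a has 2 windows, and the one with more CG is shown, which lies inside the annotated gene (start 100869858). The second, of Cacna2d1 (plus strand, 36 CG), lies at chr5:15934441-15934690. The third, of Scn11a (minus strand, 3 CG), lies at chr9:119825457-119825706, and the fourth, of Kcna5 (minus strand, 3 CG), at chr6:126535556-126535805.
Scn8a: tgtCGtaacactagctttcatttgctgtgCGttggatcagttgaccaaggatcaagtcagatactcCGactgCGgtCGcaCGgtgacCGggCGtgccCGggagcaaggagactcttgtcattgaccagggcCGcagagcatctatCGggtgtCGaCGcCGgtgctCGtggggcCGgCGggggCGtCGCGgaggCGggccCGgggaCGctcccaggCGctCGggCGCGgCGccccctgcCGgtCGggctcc
Cacna2d1: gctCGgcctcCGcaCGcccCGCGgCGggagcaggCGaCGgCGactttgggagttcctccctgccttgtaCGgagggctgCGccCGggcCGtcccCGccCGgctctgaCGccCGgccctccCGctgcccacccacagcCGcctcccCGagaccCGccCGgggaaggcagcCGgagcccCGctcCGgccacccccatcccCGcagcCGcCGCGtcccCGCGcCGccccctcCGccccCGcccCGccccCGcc
Scn11a: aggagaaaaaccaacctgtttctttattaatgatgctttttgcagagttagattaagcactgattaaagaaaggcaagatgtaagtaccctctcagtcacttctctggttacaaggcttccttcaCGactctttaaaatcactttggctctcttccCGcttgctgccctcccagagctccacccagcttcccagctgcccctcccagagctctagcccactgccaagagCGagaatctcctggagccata
Kcna5: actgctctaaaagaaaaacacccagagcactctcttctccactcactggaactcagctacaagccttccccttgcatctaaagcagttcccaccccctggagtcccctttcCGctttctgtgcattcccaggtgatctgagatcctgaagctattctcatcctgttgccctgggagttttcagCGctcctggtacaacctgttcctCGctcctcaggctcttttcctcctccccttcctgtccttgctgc

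The CG content of the starts separated the well-counted channel genes from the rest to about the extent seen over all genes. At least 15 CG dinucleotides, a number chosen after the values were seen, stood in a window of 28 of the 36 channel genes (77.8%) with enough counts to be tested and in a window of 3 of the 13 (23.1%) with too few. Over all 9644 tested genes with a window the share was also 77.8%, while over the genes not tested 1356 of 8774 reached that number. The median was 23 CG for tested channel genes and 4 CG for those not tested, the same medians as over all genes. Those not tested include Cacng6, Cacng7 and Cacng8 (8, 15 and 2 CG), whose zeros, described below, could not be read as absence. Cacng7 was among the 3 that reached 15 CG. Some tested channel genes had several windows, of which the highest was taken, while each untested one had a single window. Exceptions stood on both sides, since Scn2b was tested with 2 CG and Scn4b had 26 CG but at most 4 counts in any library. The motif TATAAA, searched on both strands, was in a window of 1 tested channel gene (Cacna1d, 2.78% of 36) and of none of the 13 others, while 8.24% of all tested and 20.8% of all untested genes held it. These matches describe letters in a window and are not evidence of a binding site.

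**Figure D1:**
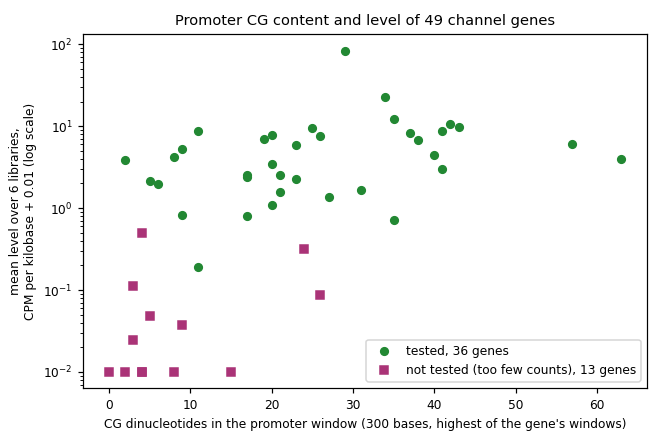
Each point is 1 of 49 channel genes with a RefSeq promoter window, with the number of CG dinucleotides in its 300-base window on the x axis (the highest where a gene has several) and its mean level over 6 libraries, in CPM per kilobase of exonic length plus 0.01, on a logarithmic y axis. The 36 tested genes (circles) had a median of 23 CG and the 13 genes not tested (squares) a median of 4. The squares include Cacng6, Cacng7 and Cacng8, whose levels were not measured here.

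Libraries held from 3444601 counts (BPA replicate 3) to 7180835 counts (vehicle replicate 2), so a count of 0 allowed a level of up to 0.422 CPM in the deepest library and 0.875 CPM in the shallowest, counting error alone. The channel genes together took from 0.334% to 0.395% of a library's counts. Defining markers of neurons and of dorsal pallium were all present. The 11 neuronal markers summed to 8861 to 9730 CPM in the vehicle libraries and 8712 to 9410 CPM in the BPA libraries. Of these, 1 was higher and 10 were lower in BPA. The 7 dorsal pallial markers summed to 2985 to 3377 CPM and to 3166 to 3314 CPM, with 5 higher and 2 lower. No marker of either list had an unadjusted p under 0.05 by edgeR's quasi-likelihood test. All 10 ventral telencephalic markers were lower in BPA. By the same test 4 of these 10 had an unadjusted p under 0.05, beside 2.20% of all genes, and 0 had an adjusted p under 0.1. The part of these 3 marker lists in the channel gene values was not tested. Markers of skeletal muscle summed to at most 9.3 CPM. The 7 blood markers were uneven, at 276.9 to 593.8 CPM in the vehicle libraries and 327.0 to 410.3 CPM in the BPA libraries. The 9 markers of vessels and meninges summed to 130.6 to 183.4 CPM and to 129.5 to 166.2 CPM. The 5 choroid plexus markers, which define an epithelium outside the cortex, summed to 214.8 CPM in vehicle replicate 2 and to 341.9 CPM in BPA replicate 2, against 4.4 to 16.6 CPM in the other 4 libraries. The comparison of the groups is therefore also given without those 2 libraries. Labels identify fetuses but not litters, so p-values measure only the spread between these libraries.

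More than 3 counts were found in every library for 54 of the 69 channel genes. The other genes fell into 9 with at most 3 counts in every library and 6 that passed this floor in some libraries only. A requirement of 10 counts in every library left 52. Kcnb, Kcnc, Kcnd, Kcnh and Cacnb were the families whose members all passed, with 2, 4, 3, 8 and 4 genes. The Scn alpha, Kcna and Cacng families passed in part, with 6 of 9, 5 of 8 and 4 of 8 genes.

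Channel genes best known from other tissues made up most of the 9 at the floor. Scn4a, the sodium channel of skeletal muscle, and Kcna7 and Kcna10, potassium channels found mainly in muscle and in kidney, had 0 counts in all 6 libraries while neighboring genes on their chromosomes were counted. Cacna1s, the calcium channel of skeletal muscle contraction, had 0 counts in each vehicle library and 2, 1 and 2 counts in the BPA libraries. Scn7a, a sodium channel gene of glia and of sodium sensing, had 1, 2 and 1 counts in the vehicle libraries and 0 in each BPA library. Cacna2d4, an alpha2delta subunit of the retina, had at most 2 counts in any library. All 3 of these genes stayed at or under 3 counts, so no difference between groups could be read from them.

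The zeros of Cacng6, Cacng7 and Cacng8 could not be read as absence of the transcript. These genes sit side by side on chromosome 7 (GRCm38, 3332955 to 3435667), inside a run of the first 8 protein-coding genes of that chromosome, all of which were listed at 0 in every library. The widely expressed Myadm lies in the same run. Counts began at Oscar (1 count over all libraries) and Ndufa3 (824 counts), so the levels of these 3 gamma subunit genes were not measured here. Cacng7 and Cacng8 encode AMPA receptor auxiliary subunits of brain, and their absence from the detected set is a limit of the table.

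The genes between floor and test were also few and low. Scn11a and Scn4b are sodium channel genes known from sensory neurons and from mature neurons. Scn11a had 3, 8 and 4 counts in the vehicle libraries and 3, 5 and 0 in the BPA libraries. Scn4b had 4, 1 and 1 counts in the vehicle libraries and 3, 2 and 2 in the BPA libraries. Cacna1f, the calcium channel of photoreceptors, had 0 to 4 counts, and Kcnq1, a potassium channel of heart and inner ear, had 3 to 10. In a bulk sample, few cells with a transcript and little of it per cell cannot be told apart.

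Levels are compared between genes as CPM per kilobase of annotated exonic length, averaged over the 6 libraries of both groups with the SD (n = 6). By this measure the highest channel genes were auxiliary. Cacng4, which encodes a protein that travels with AMPA receptors, stood at 91.3 ± 7.07 and Cacnb3, a cytoplasmic calcium channel beta subunit, at 83.95 ± 6.75 CPM per kilobase. Scn3b, a sodium channel beta subunit, followed at 31.4 ± 3.16. The highest pore-forming gene was Cacna1h at 28.3 ± 3.56. The ranges of Cacng4 (78.98 to 99.3) and Cacnb3 (74.8 to 92.5) overlapped, so their order is not resolved, and the same holds for Scn3b (26.4 to 35.6) and Cacna1h (24.9 to 33.3). The lowest level of Cacnb3 in any library lay above the highest of Scn3b.

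**Figure D2:**
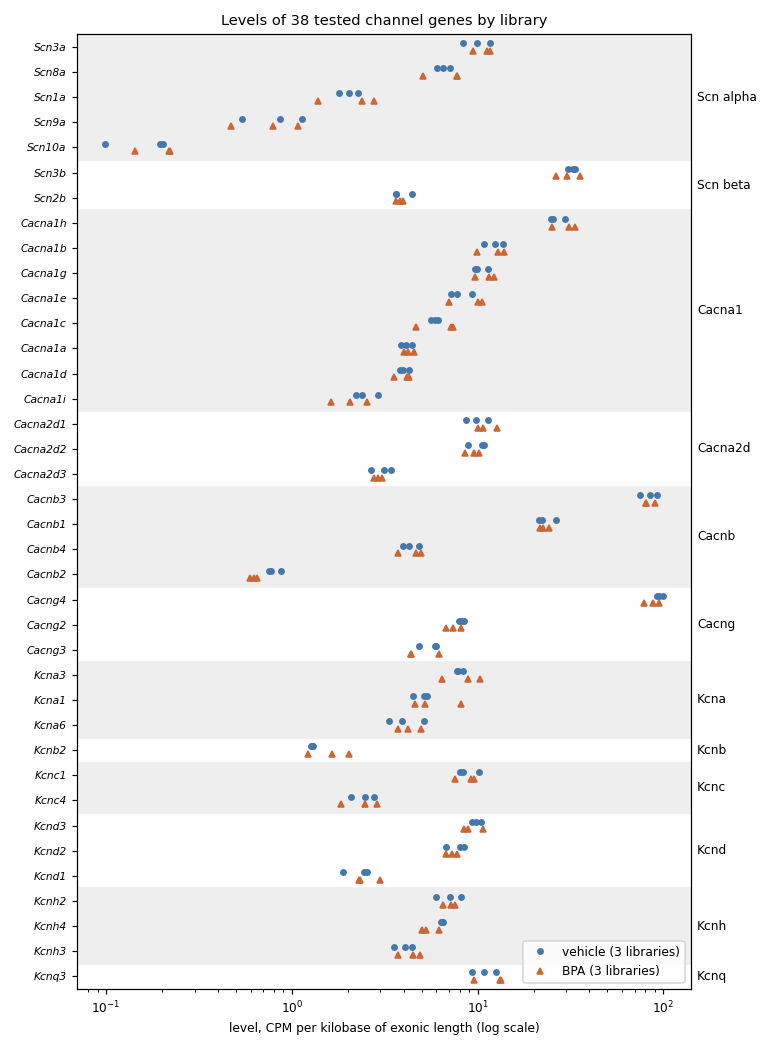
Levels of 38 channel genes that were tested and are named in the text, in CPM per kilobase of exonic length on a logarithmic axis, grouped by subunit family and ordered by level within each. Circles are the 3 vehicle libraries and triangles the 3 BPA libraries; Cacng4 and Cacnb3 lie near the top of the scale and Scn10a near 0.2, and the groups overlap for every gene shown but Cacnb2 and Kcnh4.

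Among the sodium channel alpha genes that the symbol rule took, Scn3a held from 45.0% to 53.3% of the summed level per kilobase, and from 46.6% to 48.1% without the 2 libraries rich in choroid plexus markers. Scn3a encodes the alpha subunit best known from embryonic brain. Its level was 146, 104 and 123 CPM in the vehicle libraries and 140, 118 and 145 CPM in the BPA libraries. Scn8a, the alpha subunit that dominates at the initial segment of mature axons, stood at 6.70 ± 1.04 CPM per kilobase and Scn1a, a subunit prominent in inhibitory neurons after birth, at 2.10 ± 0.478. Scn9a, better known from sensory neurons, was lower still at 0.811 ± 0.269. The order Scn3a, Scn8a, Scn1a held with no overlap of their ranges over the 6 libraries.

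The Scn2a gene, the other main alpha subunit of fetal brain, was listed under its older symbol Scn2a1, which the symbol rule did not take. Its level was 7.33 ± 1.34 CPM per kilobase, close to that of Scn8a. With Scn2a1 in the sum, Scn3a held from 34.3% to 39.2% of the alpha subunit level and Scn2a1 from 22.1% to 28.3%. It had 102, 73.9 and 93.3 CPM in the vehicle libraries and 87.0, 81.7 and 122 CPM in the BPA libraries. Scn3a shared 6.49% of its 50-base transcript words with another gene and was the single channel gene of the 69 above 5%. Scn2a1 shared 5.76%. Short reads from those stretches could have been lost or split between them.

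Scn3b dominated the beta subunits, with 78.2% to 84.1% of their summed level. It had 178, 168 and 181 CPM in the vehicle libraries and 144, 164 and 195 CPM in the BPA libraries. Scn2b, an adhesion-like partner of alpha subunits that is prominent in mature axons, stood at 3.85 ± 0.320 CPM per kilobase, and its range did not come near that of Scn3b.

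Per kilobase of exonic length, the calcium channel pore genes were led by the T-type group, channels that open near the resting potential. Cacna1g, Cacna1h and Cacna1i together made up 49.4% to 58.0% of the summed Cacna1 level, and 49.4% to 54.5% without the choroid-rich libraries. Cacna1h had 243, 290 and 249 CPM in the vehicle libraries and 326, 247 and 303 CPM in the BPA libraries. The P/Q-, N- and R-type genes that serve transmitter release (Cacna1a, Cacna1b and Cacna1e) made up 29.3% to 36.6% and the L-type genes 12.5% to 13.96%. Cacna1b, the N-type gene, stood at 12.3 ± 1.58 CPM per kilobase and Cacna1g at 10.7 ± 1.10, with overlapping ranges. In each of the 6 libraries the T-type share per kilobase was the largest and the L-type share the smallest. Cacna1h alone held 36.9% of the summed Cacna1 level. The T-type lead in every library depends on division by exonic length, 9763 bases for Cacna1h and 25228 bases for Cacna1e. In CPM the means over the 6 libraries were 109, 276 and 22.6 for Cacna1g, Cacna1h and Cacna1i. They were 48.0, 122 and 218 for Cacna1a, Cacna1b and Cacna1e. In vehicle replicate 1 the values were 97.8, 243 and 23.5 CPM against 50.4, 135 and 234 CPM, in the same orders. There, and narrowly in BPA replicate 3, the T-type genes did not lead in CPM.

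Each auxiliary calcium channel family was led by 1 or 2 genes. Cacnb3 took 72.9% to 77.7% of the beta subunit level, and Cacnb1 (23.0 ± 1.91 CPM per kilobase) and Cacnb4 (4.41 ± 0.513) came next. Cacnb2, a beta subunit best known from heart, was the lowest at 0.713 ± 0.106. Exons on the opposite strand covered 16% of the exonic length of Cacnb4 and 7.32% of that of Cacnb2, and whether counting used strand is not stated. Cacna2d1 and Cacna2d2, targets of gabapentin-type drugs, stood at 10.6 ± 1.41 and 9.76 ± 0.888 CPM per kilobase with overlapping ranges, above Cacna2d3 at 2.99 ± 0.266. Cacng4 took 82.9% to 86.8% of the gamma subunit level, ahead of Cacng2, the stargazin gene, at 7.80 ± 0.654 and Cacng3 at 5.28 ± 0.848. Cacng7 and Cacng8 could not enter that share, for the reason given above.

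The potassium channel pore genes were led by the Kcnq family, which forms the M-type channel that holds back repetitive firing. The summed level of the family was 37.3 ± 3.89 CPM per kilobase, above the summed level of each other potassium family. Kcnq3, a subunit of that channel in cortical neurons, stood at 11.5 ± 1.82 CPM per kilobase. It had 184, 137 and 159 CPM in the vehicle libraries and 197, 140 and 194 CPM in the BPA libraries, which overlap.

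The leading gene took 39.0% of the summed level of the Kcna family, 45.3% of Kcnc, 49.2% of Kcnd and 29.7% of Kcnh. Kcna3 (8.25 ± 1.28 CPM per kilobase), Kcna1 (5.48 ± 1.36) and Kcna6 (4.21 ± 0.704) were the highest of the Kcna family, which holds low-threshold delayed rectifiers. Opposite-strand exons covered 39.6% of Kcna6. Among the fast-spiking Kcnc genes, Kcnc1 stood at 8.80 ± 0.984 and Kcnc4 at 2.42 ± 0.392. Among the A-type Kcnd genes, Kcnd3 stood at 9.60 ± 0.889, Kcnd2 at 7.51 ± 0.686 and Kcnd1 at 2.41 ± 0.356. The Kcnh family was led by Kcnh2 (the ERG channel, 7.06 ± 0.760), Kcnh4 (5.95 ± 0.654) and Kcnh3 (4.19 ± 0.506). Kcnb2, a delayed rectifier gene, was low in this fetal tissue at 1.46 ± 0.313 CPM per kilobase.

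BPA exposure was not followed by a detectable change in any channel gene. Of the 69, 53 had enough counts for edgeR's quasi-likelihood test over 13741 genes, and none passed a Benjamini-Hochberg adjusted p of 0.1. Over all genes the share past that threshold was 0%. None of the 53 had an unadjusted p under 0.05 either, against 2.20% of all genes tested. DESeq2 and limma-voom also gave 0 channel genes at both thresholds. The smallest unadjusted p among the 53 was 0.0815 and the smallest adjusted p was 0.9998. On the log2 scale the median difference (BPA minus vehicle) was -0.00045, with 26 genes higher and 27 lower, beside 0.0016 over all genes tested. That split rested on single libraries, being 34 higher and 20 lower without BPA replicate 2 and 17 higher and 37 lower without BPA replicate 3. Without both choroid-rich libraries the median was 0.04, with 30 higher and 22 lower.

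The intervals around these differences, like the p-values, measure only the spread between these libraries. The 95% interval lay within a 1.5-fold difference in either direction for 40 of the 53 channel genes (75.5%), against 71.2% of all genes tested, and within 2-fold for 52. The exception was Scn10a, the lowest gene tested. Intervals were narrowest for well-counted genes. For Cacng4 the log2 difference was -0.13 (95% interval -0.33 to 0.07), for Cacnb3 -0.01 (-0.22 to 0.21), and for Scn3b -0.07 (-0.31 to 0.16). Scn3a and Scn8a had differences of 0.11 (-0.16 to 0.37) and 0.05 (-0.25 to 0.36). For these 5 genes a 1.5-fold change in either direction lay outside the interval.

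**Figure D3:**
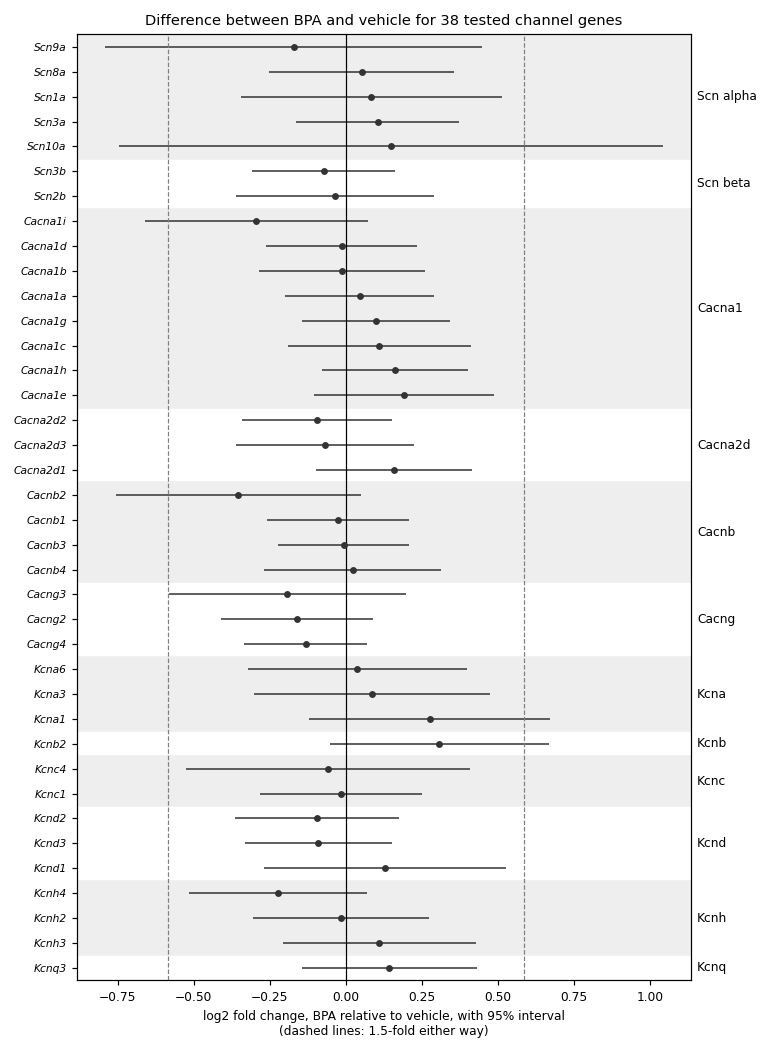
Log2 fold change of the same 38 channel genes in BPA relative to vehicle cortex, with its 95% interval from edgeR's quasi-likelihood test, grouped by subunit family and ordered by size within each. The vertical line is no difference and the dashed lines are 1.5-fold in either direction; every interval shown includes 0, and 32 of 38 lie between the dashed lines.

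The libraries of the groups did not overlap for 2 of the 53 channel genes, Cacnb2 and Kcnh4, which is 3.77% beside 6.75% of all genes tested. Cacnb2 (chromosome 2, 14603088 to 14987908) had 10.0, 11.5 and 10.3 CPM in the vehicle libraries and 8.32, 8.61 and 7.88 CPM in the BPA libraries. All 3 BPA libraries lay below all vehicle libraries, with a log2 difference of -0.35 (SE 0.19, unadjusted p = 0.0815 by edgeR's quasi-likelihood test). These levels rest on 27 to 82 counts a library. Kcnh4 (chromosome 11, 100740376 to 100759942), a voltage-gated channel of forebrain, had 25.3, 25.2 and 25.8 CPM in the vehicle libraries and 20.7, 24.4 and 19.8 CPM in the BPA libraries. Its difference was -0.22 (SE 0.14, unadjusted p = 0.125), and BPA replicate 2 lay within 1 CPM of the lowest vehicle library. Without both choroid-rich libraries the differences were -0.31 (unadjusted p = 0.235) for Cacnb2 and -0.32 (unadjusted p = 0.0776) for Kcnh4, and the groups of 2 did not overlap for 21 of 52 channel genes, beside 35.2% of all genes. The summed ventral telencephalic markers moved the same way, with 1010 to 1155 CPM over 10 genes in the vehicle libraries and 884 to 964 CPM in the BPA libraries, and their part in these values was not tested.

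Other genes among the 10 smallest p-values overlapped between groups. Kcnb2 had 19.7, 19.6 and 19.3 CPM in the vehicle libraries and 24.8, 18.5 and 30.6 CPM in the BPA libraries, so that BPA replicate 2 lay below the vehicle libraries and the other BPA libraries above them (difference 0.31, SE 0.17). Kcna1, a low-threshold potassium channel gene, owed its difference of 0.28 (SE 0.19) to BPA replicate 1 at 39.1 CPM, since the other 5 libraries lay between 21.5 and 25.4 CPM. Cacna1i, a T-type calcium channel gene, had 23.5, 21.8 and 28.8 CPM in the vehicle libraries and 20.3, 15.9 and 25.1 CPM in the BPA libraries (difference -0.29, SE 0.17). Cacna1h (0.16) and Cacng4 (-0.13) had unadjusted p of 0.172 and 0.186 by edgeR's quasi-likelihood test.

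The families split by direction without any member passing the test. Of the 39 pore-forming genes, 23 were higher and 16 lower in BPA, with a median log2 difference of 0.04, and of the 14 auxiliary genes, 3 were higher and 11 lower, with a median of -0.07. All 5 tested Kcna genes and all 4 Kcnq genes had positive differences, with family medians of 0.09 and 0.09. All 4 Kcnc genes and all 3 sodium channel beta genes had negative ones, with medians of -0.05 and -0.07. The Cacna1 genes had 5 positive and 3 negative values, from -0.29 for Cacna1i to 0.19 for Cacna1e. Genes of a family share libraries, and these counts carry no test. They shifted without both choroid-rich libraries, where the pore-forming genes had 24 higher and 14 lower, the auxiliary genes 6 and 8, Kcna 3 and 2, Kcnq 3 and 1, and Kcnc 2 and 2, while the 3 sodium channel beta genes stayed lower. The summed Cacna1 level was 938 ± 26.8 CPM in the vehicle group and 1014 ± 163 CPM in the BPA group (SD, n = 3 each), and the larger spread of the BPA libraries covered the vehicle mean. Summed over all channel genes, levels were 3606 ± 123 CPM and 3684 ± 340.5 CPM.

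Differences between libraries of the same group were larger than the median difference between the groups and ran through many channel genes at once. Each gene's log2(CPM + 0.5) was set against its mean over the 6 libraries. The median of these deviations over the 39 pore-forming genes was 0.11, -0.11 and -0.04 in the vehicle libraries and 0.07, -0.17 and 0.19 in the BPA libraries. Vehicle replicate 2 was the lowest vehicle library for 25 of the 39 genes and BPA replicate 2 the lowest BPA library for 29, and both held for 17. Those are the libraries with the high choroid plexus markers. The 14 auxiliary genes followed this less clearly. Their medians were 0.03, 0.07 and 0.08 in the vehicle libraries and -0.07, -0.07 and 0.05 in the BPA libraries. Vehicle replicate 2 was the lowest vehicle library for 7 of the 14 and BPA replicate 2 the lowest BPA library for 6, and both held for 4.

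Other long genes shared the low values of BPA replicate 2 but less clearly those of vehicle replicate 2. Pore-forming genes had a median exonic length of 9458 bases and auxiliary genes of 5059 bases. The 25 channel genes of at least 8 kb had medians of 0.13, -0.15 and -0.04 in the vehicle libraries and 0.09, -0.20 and 0.19 in the BPA libraries. The 2477 other genes of that length had 0.06, -0.03 and -0.06, and 0.06, -0.08 and 0.06. Vehicle replicate 2 was the lowest vehicle library for 38.4% of these other genes and BPA replicate 2 the lowest BPA library for 58.7%, beside 34.9% and 26.2% of the other genes under 8 kb. The lowest median of these other long genes among the vehicle libraries was that of vehicle replicate 3. The part of choroid plexus tissue, transcript length or depth in these values was not tested.

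**Figure D4:**
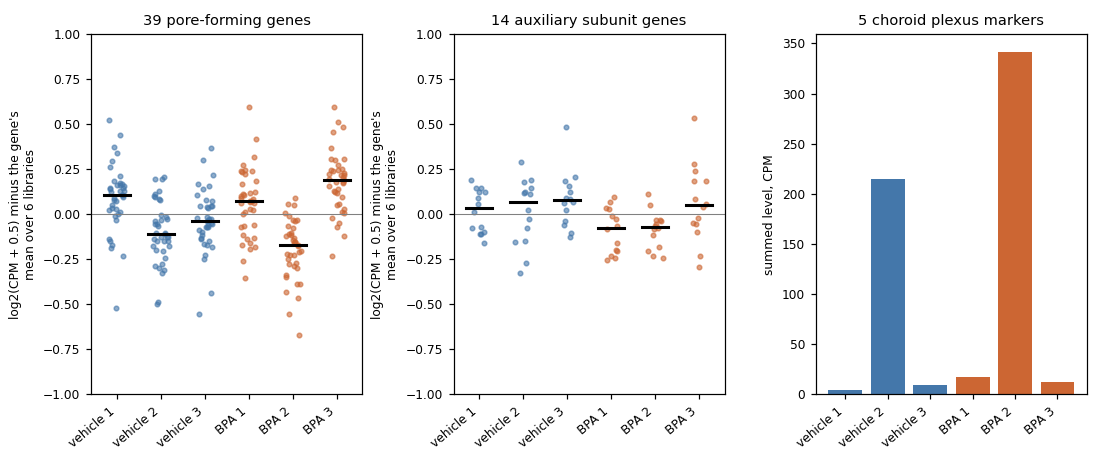
In the left and middle panels each point is a channel gene's log2(CPM + 0.5) in 1 library minus its mean over the 6 libraries, for 39 pore-forming and 14 auxiliary genes, with a bar at the median. The right panel gives the summed level of 5 choroid plexus markers in CPM, and the 2 libraries where it was high, at 214.8 and 341.9 CPM, are those with the lowest pore-forming medians of their group.

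Kcne2, an auxiliary potassium channel subunit known from choroid plexus epithelium and no member of the families above, followed the same libraries. It had 0.735, 7.60 and 0.592 CPM in the vehicle libraries and 0.785, 14.8 and 0.292 CPM in the BPA libraries.

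Leaving out these libraries changed the count of small p-values. Without BPA replicate 2, 7 of 54 channel genes (13.0%) had an unadjusted p under 0.05, all higher in BPA. Of all genes, 4.02% had such a p in either direction and 2.16% with a higher level in BPA. They were Cacna1c, Cacna1e, Cacna1h, Kcna1, Kcnb2, Kcnq3 and Scn1a. Without vehicle replicate 2 and BPA replicate 2 together, a comparison added after seeing the data, there were 6 of 52 (11.5%), again all higher, beside 6.99% of all genes in either direction and 4.12% with a higher level in BPA. They were Cacna1c, Cacna1e, Cacna1g, Cacna1h, Kcna1 and Kcnb2. For Cacna1h the log2 difference then went from 0.16 to 0.36 (unadjusted p = 0.00339, adjusted p = 0.454 by edgeR's quasi-likelihood test). For Cacna1c, the main L-type gene of brain, it went from 0.11 to 0.28 (unadjusted p = 0.0266). No channel gene passed the adjusted threshold in any of these comparisons, and 0.454 was the lowest adjusted p that any of them reached.

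Genes whose products associate with, anchor or modify these channels, or form other ion channels, were read from the same fit. Of 68 such genes in the table, 54 were tested, and none passed an adjusted p of 0.1 or an unadjusted p of 0.05. Differences were positive for 27 and negative for 27, with a median of -0.0027 on the log2 scale. The highest levels per kilobase were those of Fgf13 (28.8 ± 2.04), a partner of sodium channels and microtubules, Nedd4l (20.3 ± 1.10), a ubiquitin ligase that removes channels from the membrane, and Ank3 (19.7 ± 2.85), the ankyrin that anchors sodium and Kcnq channels at the axon initial segment. Fgf13 had 113, 116 and 112 CPM in the vehicle libraries and 107, 131 and 116 CPM in the BPA libraries, which overlap. The groups did not overlap for 3 partner genes, 5.56% beside the 6.75% of all genes. These were Lgi2 (-0.34), Cntnap2 (-0.20), which clusters Kcna channels along myelinated axons, and Kcnmb4 (-0.32), all lower in BPA and named after their values were seen. Kcnmb4 rests on 10 to 24 counts a library, and opposite-strand exons covered 31.5% of its exonic length. Lgi2 had the smallest unadjusted p at 0.0579. For Scn2a1 the difference was 0.10 (SE 0.15), close to that of Scn3a.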

How the data were processed

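The values used were the read counts per gene deposited by the authors for 6 libraries, 3 per group. Groups came from the labels, and replicates were numbered in accession order, so the numbers pair nothing. Labels and methods give the fetal age used here, while the study's results section gives a later one. According to the study's methods, strand-specific single-end reads of 50 bases were aligned with TopHat to GRCm38 and counted with featureCounts on GENCODE models. The submitters' processing notes give TopHat2 2.0.14. Whether strand or multiply aligned reads were used in counting is not stated in the sources used here, so overlapping genes and near-identical stretches may lose or gain counts.

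Counts were fitted across all genes in R 4.3.3 with edgeR 4.0.16. The filterByExpr function (minimum count 10, minimum total 15) kept 13741 genes. TMM scaling and Benjamini-Hochberg adjustment with a threshold of 0.1 followed the study's methods, which name edgeR but no test. The quasi-likelihood test without covariates was chosen here. CPM was computed on TMM-scaled library sizes and divided by exonic length from GENCODE M21 (GRCm38) for levels between genes. That length joins the exons of all transcripts, so it understates genes with many unused exons. Deviations used a pseudocount of 0.5 CPM. A level of at most 3 counts was treated as not detectable. Sequence sharing was the share of 50-base transcript words also found in another gene. The fit was tested on simulated counts before use. Alternatives were DESeq2 1.42.0, limma-voom (limma 3.58.1), 3 other scalings, 2 other filters and omission of each library.

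The genes named were the 3 highest of each family, the 10 with the smallest unadjusted p, genes at or under 3 counts, genes whose groups did not overlap, the 3 highest partners and Scn2a1. Some genes these rules take are not reported here. Others were named for their role or after their values were seen. The channel genes, the partner list and the marker lists were chosen with earlier results of these data known.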

Additional observations from a re-analysis of the deposited data

How the results depend on the processing

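No channel gene passed the adjusted threshold in any of the 14 alternatives, and the median log2 difference of the channel genes stayed between -0.06 and 0.07 when each library was left out. The number of channel genes with more than 3 counts in every library was 54 to 56 when each library was left out. The number with an unadjusted p under 0.05, 0 as reported, was 1 with no filter on low counts (Cacna1s, at 0 in all vehicle libraries), 0 to 7 when each library was left out and 6 without both libraries rich in choroid plexus markers. The number of all genes past the adjusted threshold, 0 as reported, was 3 with DESeq2, 19 with no filter, 0 to 1 when each library was left out, and 15 without both choroid-rich libraries. Channel genes whose groups did not overlap, 2 as reported, were 3 to 15 when 1 library was left out (5.66% to 27.8% of those tested, beside 12.2% to 19.7% of all genes) and 21 without both choroid-rich libraries. Channel genes higher in BPA, 26 of 53 as reported, ranged from 17 of 54 without BPA replicate 3 to 34 of 54 without BPA replicate 2.

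In 5 cases the direction of a small difference turned. Without BPA replicate 1, Kcna1 went to -0.043, Scn1a to -0.16 and Cacna1c to -0.011, and Scn2a1 went to -0.03 without vehicle replicate 2 and to -0.089 without BPA replicate 3. Over all omissions of 1 library, Kcna1 ranged from -0.043 to 0.45, Scn1a from -0.16 to 0.34, Cacna1c from -0.011 to 0.30 and Scn2a1 from -0.089 to 0.20. The other 203 differences followed kept their direction, among them Cacnb2 (-0.40 to -0.28) and Kcnh4 (-0.32 to -0.17). Remaining named genes were not followed in this way, and some turned. Without both choroid-rich libraries the Cacnb genes went from 1 higher and 3 lower to 3 higher and 1 lower.

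No paired analysis was possible because the labels carry no replicate numbers. Groups of 3 libraries and 3444601 counts in the shallowest limit what could be called. The 1.5-fold bounds above come from unadjusted intervals of single genes. Over all genes tested the smallest unadjusted p was 2.17e-05 by edgeR's quasi-likelihood test, with an adjusted p of 0.251. A channel gene that differed by more than 1.5-fold could therefore have missed the adjusted threshold.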
